A study of Mus musculus with 12 samples.

Results

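The mRNAs of the CCR4-NOT deadenylase were followed in RNA immunoprecipitates (RIPs) of the m6A readers YTHDF1, YTHDF2 and YTHDF3. The members were the 10 genes Cnot1, Cnot2, Cnot3, Cnot4, Cnot6, Cnot6l, Cnot7, Cnot8, Cnot10 and Cnot11, matched by symbol and Ensembl gene identifier among the 55573 genes of the count table. All 10 were among the 17126 genes that passed the filter on low counts, with between 92 and 9062 counts per library. The samples were wild-type C57BL/6 primary hippocampal neurons from newborn pups, with the tissue of the animals of a litter pooled, treated with Ara-C against dividing cells and harvested after 14 days in culture. No group carried a transgene or a deletion. The 4 groups of 3 libraries were Input, which is RNA of the lysate, and the YTHDF1 RIP, YTHDF2 RIP and YTHDF3 RIP, made with antibodies to the endogenous proteins. Each lysate was shared out among the 3 RIPs, and no immunoprecipitate with a control antibody was analysed here.

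CCR4-NOT shortens the poly(A) tails of cytoplasmic mRNAs, which slows their translation and leads to their decay. CNOT1 is the scaffold on which the other subunits assemble, and the tail is removed by paired catalytic subunits, one of the DEDD type (CNOT7 or CNOT8) and one of the EEP type (CNOT6 or CNOT6L). YTHDF proteins bind mRNAs that carry N6-methyladenosine (m6A), and YTHDF2 is known to recruit the complex through CNOT1, so that here the mRNAs of the decay enzyme are themselves examined as cargo of the readers.

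Total counts lay between 6020072 and 38909592 per library, with the YTHDF2 RIP lowest and the YTHDF1 RIP spread most widely. The 8 neuronal markers had counts in every group, and their summed level in Input ranged from 2651 to 4262 CPM (counts scaled to the size of the library). The 6 astrocyte markers summed to between 996 and 3327 CPM in Input, so the cultures also held astrocyte RNA, and the part of these cells in the results was not tested. Markers of oligodendrocytes, microglia and endothelium summed to at most 22.1, 5.68 and 1.83 CPM in Input. In such bulk samples fewer cells of a type and less RNA per cell cannot be told apart.

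The m6A mark is placed within a short consensus, of which GGACT is the commonest form written as DNA. The letters GGACT were searched on the transcript strand in the principal annotated transcript of each member (GENCODE M21, build GRCm38). Of 13379 transcripts searched in the same way, 92.3% held GGACT, and 61.4% held it in the 3′ UTR. Cnot6l had 3 matches, all in a 3′ UTR of 6847 bases, and its density of 0.35 per kb was below the median of 1.04 per kb. Cnot1 had 11 matches, all in the coding sequence. Cnot6 had 4, Cnot7 had 2 and Cnot8 had 1, while Cnot3 had none in this transcript. For the scaffold and the 4 catalytic subunits, on which the results below turn, the match nearest to the stop codon is shown. It was picked among matches whose 30-base window lay within a single exon. Positions of these matches were counted in transcript bases from the start of the stop codon, negative before it. They were 3252 for Cnot6l, 202 for Cnot6, -526 for Cnot7, -55 for Cnot8 and -461 for Cnot1. GGACT is in capitals, and the sequence is 5′ to 3′ on the strand of the gene.
Cnot6l, 3′ UTR, exon 12 of 12, chr5:96073913-96073942, minus strand: gcagcattctcaGGACTgacatctggaaaa
Cnot6, 3′ UTR, exon 12 of 12, chr11:49674976-49675005, minus strand: actgctagacagGGACTggtgtgtttacac
Cnot7, coding sequence, exon 3 of 6, chr8:40500878-40500907, minus strand: catgtatgctcaGGACTctatagagctact
Cnot8, coding sequence, exon 7 of 7, chr11:58117519-58117548, plus strand: gaatgaggatgtGGACTgtgcccaggagaa
Cnot1, coding sequence, exon 46 of 49, chr8:95723384-95723413, minus strand: tgctctacgtagGGACTcaggctatcgcac
A match is a description of the sequence. Methylation was not measured in these libraries.

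Levels of the members were compared per kilobase of exon, as normalized CPM divided by exonic length. This length counts every annotated exon of a gene, with 17169 bases for Cnot1, 5821 for Cnot7 and 2636 for Cnot8. The principal transcripts of these genes have 8364, 2982 and 2099 bases. The order of the members therefore depends on the length used, and the order per transcript length was not tested. In Input, Cnot8 had the highest level, 15.5 ± 0.53 CPM per kb (SD, n = 3), followed by Cnot7 at 11.2 ± 0.95 and Cnot2 at 7.87 ± 1.0. Cnot11, Cnot1 and Cnot6 followed at 6.04 ± 0.66, 5.61 ± 0.083 and 5.46 ± 1.12, which were within each other's spread. Cnot3 was at 4.60 ± 0.16, and Cnot10, Cnot4 and Cnot6l were lowest at 3.65 ± 0.16, 3.65 ± 0.42 and 3.63 ± 0.87, which did not differ beyond their spread. The order changed in the YTHDF1 RIP, where Cnot6l was highest of the 10 at 27.9 ± 15.5 CPM per kb and Cnot10 lowest at 3.22 ± 0.23. In the YTHDF2 and YTHDF3 RIPs Cnot8 remained highest, at 16.0 ± 1.78 and 16.1 ± 0.69, and Cnot4 was lowest, at 2.32 ± 0.27 and 1.997 ± 0.37.

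**Figure D1:**
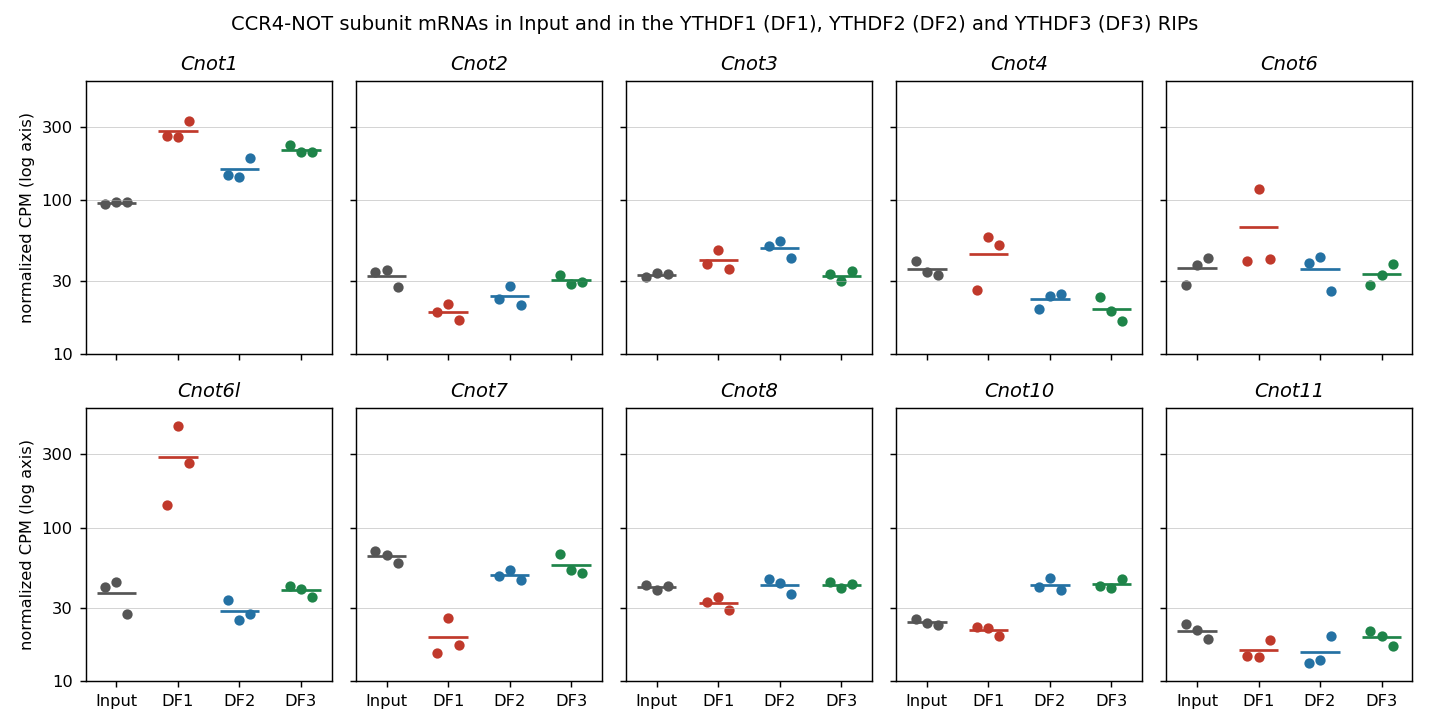
Normalized CPM (log axis) of the 10 CCR4-NOT subunit mRNAs in each library, with a panel per gene, points for the 3 replicates in the order 1 to 3 and a line at the group mean. Cnot1 is above Input in all 3 RIPs, Cnot6l stands high in the YTHDF1 RIP at 141 to 458 CPM, and Cnot7 is low there at 15.1 to 25.5 CPM.

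Each RIP was compared with Input to ask which members were recovered with each reader. In the edgeR quasi-likelihood test with Benjamini-Hochberg adjustment over all genes, a gene was called at an adjusted p of at most 0.05 and a log2 fold change of at least 0.32 in size. In the YTHDF1 RIP 2 members were enriched (Cnot1 and Cnot6l), 2 were depleted (Cnot2 and Cnot7) and 6 were not called, where 27.2% of all genes were enriched and 25.8% depleted. In the YTHDF2 RIP 3 were enriched (Cnot1, Cnot3 and Cnot10) and 0 depleted by edgeR, against 15.7% and 19.0% of all genes. At an unadjusted p under 0.05, 3 members were lower there (Cnot2, Cnot4 and Cnot11), and DESeq2 called 2 depleted. In the YTHDF3 RIP 2 were enriched (Cnot1 and Cnot10) and 1 was depleted (Cnot4), against 16.4% and 23.0% of all genes. These counts lie near the background, and the median log2 fold change of the members was 0.06, -0.20 and -0.05 beside 0.02, 0.02 and 0.05 over all genes. Scaling by library size alone moved the enriched share of all called genes from 51.4% to 33.2% for YTHDF1 and from 41.7% to 61.4% for YTHDF3, and TMM over protein-coding genes, an alternative chosen after seeing the data, moved it to 40.0% for YTHDF1. The subunits of the complex thus did not move as a block, and Cnot1 was the single member called in all 3 RIPs. Each member's test was repeated under 12 alternative settings and, leaving out in turn every library of the groups compared, in 6 further fits.

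**Figure D2:**
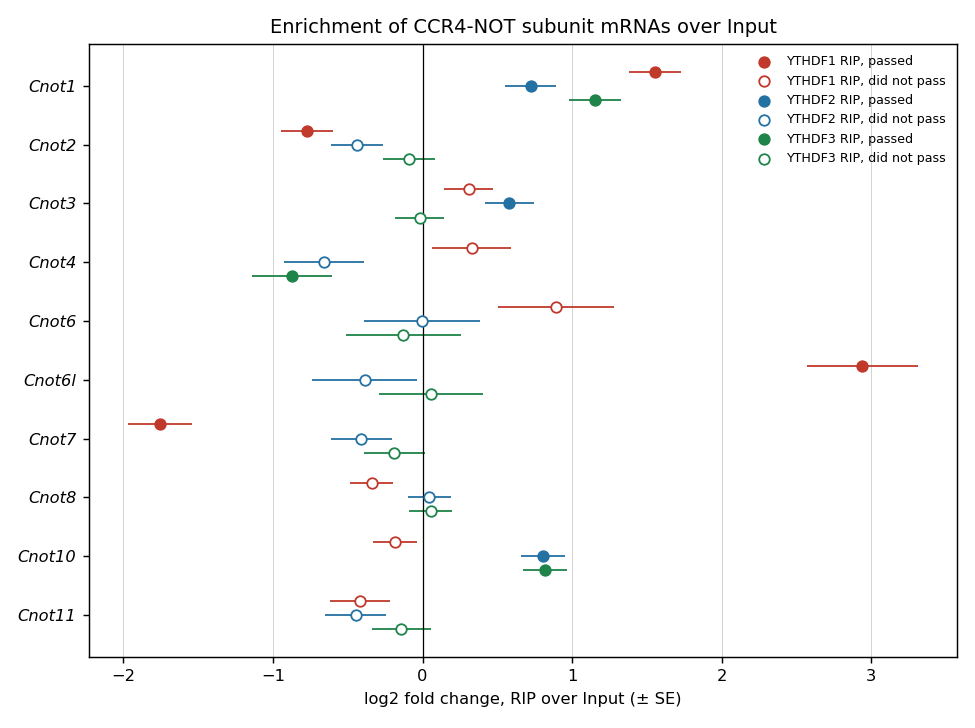
Log2 fold change of each RIP over Input for the 10 members, with error bars of 1 standard error; filled points passed both thresholds. Cnot6l at 2.94 and Cnot7 at -1.75 in the YTHDF1 RIP are the extremes, and Cnot1 is the member with 3 filled points.

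Cnot1 (ENSMUSG00000036550, chr8:95719451-95807464, minus strand) encodes the scaffold. Its normalized level in Input was 94.8, 97.3 and 97.1 CPM. With YTHDF1 it was 261, 259 and 329 CPM, with YTHDF2 145, 142 and 190 CPM, and with YTHDF3 229, 207 and 207 CPM. Every RIP library was above every Input library. The log2 fold change was 1.55 ± 0.17 (SE) for YTHDF1 (2.94-fold, edgeR adjusted p = 3.67e-05), 0.72 ± 0.17 for YTHDF2 (1.65-fold, adjusted p = 0.00716) and 1.15 ± 0.17 for YTHDF3 (2.22-fold, adjusted p = 0.000334). Cnot1 has 17169 bases of exon in the annotation, at percentile 98.7 of the genes tested. When the trend of each library with exonic length was removed, the calls were lost, with log2 fold changes of 0.16 (adjusted p = 0.400), 0.21 (adjusted p = 0.313) and 0.41 (adjusted p = 0.0576). Without a filter the YTHDF2 call was lost too (adjusted p = 0.185). The 3 genes whose profile over the 12 libraries was nearest to that of Cnot1 were Arfgef2, Gbf1 and Ep400, at Euclidean distances of 0.45, 0.47 and 0.48 in log2 CPM centred on Input, with exonic lengths of 8770, 10855 and 13971 bases. The nearest other member was Cnot3, at rank 5608.

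The EEP-type catalytic subunits are encoded by the paralogs Cnot6 and Cnot6l. Cnot6l (ENSMUSG00000034724, chr5:96070333-96164171, minus strand), whose 3′ UTR match is printed above, was at 41.1, 44.0 and 27.2 CPM in Input and at 141, 458 and 263 CPM in the YTHDF1 RIP. It was at 33.8, 24.8 and 27.5 CPM with YTHDF2 and at 41.8, 39.8 and 35.3 CPM with YTHDF3. All 3 YTHDF1 libraries were above every other library, while the YTHDF2 and YTHDF3 libraries overlapped Input. The log2 fold change for YTHDF1 was 2.94 ± 0.37 (7.67-fold, edgeR adjusted p = 7.73e-05). It was -0.39 ± 0.35 for YTHDF2 (adjusted p = 0.421) and 0.06 ± 0.35 for YTHDF3 (adjusted p = 0.914). Directly compared, Cnot6l was 10.02-fold higher in the YTHDF1 than in the YTHDF2 RIP (adjusted p = 0.000117) and 7.38-fold higher than in the YTHDF3 RIP (adjusted p = 0.000384). These 3 calls held in all 12 alternatives and all 6 fits without a library, but the size of the fold moved. Against Input it was 4.15-fold with the length trend removed, and against the YTHDF3 RIP 4.31-fold with scaling by library size alone and 4.76-fold without YTHDF1 replicate 2.

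Cnot6 (ENSMUSG00000020362, chr11:49671503-49712723, minus strand) was at 27.9, 38.1 and 42.3 CPM in Input and at 40.3, 119 and 41.4 CPM in the YTHDF1 RIP. Replicate 2 of the YTHDF1 RIP stood apart, and the others lay within the Input range. The log2 fold change of 0.89 ± 0.39 did not pass (edgeR adjusted p = 0.0714, 95% interval 0.13 to 1.65). Without replicate 2 it was 0.12, and without replicate 1 or 3 it was called, at 1.16 and 1.03. It was also called without a filter, at 0.85 (adjusted p = 0.0153). The YTHDF2 and YTHDF3 values were -0.01 ± 0.39 and -0.13 ± 0.38. The same YTHDF1 replicate was also the highest of the 3 for Cnot2, Cnot3, Cnot4, Cnot6l, Cnot7 and Cnot8.

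The DEDD-type catalytic subunits are encoded by Cnot7 and Cnot8. Cnot7 (ENSMUSG00000031601, chr8:40492540-40515847, minus strand) was at 69.9, 66.3 and 59.1 CPM in Input and at 15.1, 25.5 and 17.2 CPM in the YTHDF1 RIP. It was at 48.4, 53.0 and 45.8 CPM with YTHDF2 and at 67.7, 52.9 and 50.8 CPM with YTHDF3. The YTHDF1 libraries were below all others, with a log2 fold change over Input of -1.75 ± 0.21 (3.37-fold lower, edgeR adjusted p = 5.85e-05). Neither YTHDF2 (-0.41 ± 0.21, adjusted p = 0.144) nor YTHDF3 (-0.19 ± 0.20, adjusted p = 0.494) passed. Cnot7 was also lower in the YTHDF1 than in the YTHDF2 RIP, by 2.54-fold (adjusted p = 0.000748), and than in the YTHDF3 RIP, by 2.96-fold (adjusted p = 0.000486). With library size alone the latter was 4.94-fold. The YTHDF2 value over Input was called with the length trend removed, at -0.63 (adjusted p = 0.0463, and 0.0476 with the replicate block).

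Cnot8 (ENSMUSG00000020515, chr11:58104153-58118594, plus strand) was at 41.9, 39.3 and 41.5 CPM in Input and at 32.5, 35.2 and 29.2 CPM in the YTHDF1 RIP. The YTHDF1 libraries were all lower, but the log2 fold change of -0.34 ± 0.15 did not pass (edgeR adjusted p = 0.0683, 95% interval -0.63 to -0.06). It was called in 5 of 12 alternatives, which were DESeq2 (-0.38, adjusted p = 0.0179), edgeR with DESeq2 size factors (-0.38, 0.0480), library size alone (-0.74, 0.00410), TMM over protein-coding genes (-0.59, 0.00636) and a minimum mean of 50 (-0.45, 0.0168). It was also called without YTHDF1 replicate 2, at -0.48 (adjusted p = 0.0199). In the YTHDF2 and YTHDF3 RIPs the values were 0.05 ± 0.15 and 0.05 ± 0.15, with libraries that overlapped Input. Cnot8 was lower in the YTHDF1 than in the YTHDF3 RIP with library size alone, at -1.12 (adjusted p = 0.000690), and in no other alternative.

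To compare paralogs without any scaling between libraries, the log2 ratio of their counts was taken within each library. The ratio of Cnot7 to Cnot8 was 0.67 ± 0.14 in Input (SD, n = 3), -0.77 ± 0.32 with YTHDF1, 0.22 ± 0.13 with YTHDF2 and 0.42 ± 0.19 with YTHDF3. Cnot7 counts exceeded Cnot8 counts in every library except the 3 of the YTHDF1 RIP. The ratio of Cnot6 to Cnot6l was -0.04 ± 0.61 in Input, -2.14 ± 0.46 with YTHDF1, 0.30 ± 0.45 with YTHDF2 and -0.25 ± 0.35 with YTHDF3. The YTHDF1 libraries, between -1.80 and -2.67, did not overlap any other group. The mean over all 9 RIP libraries minus that of Input was -0.71 for Cnot7 to Cnot8 (exact two-sided permutation test within replicate numbers, p = 0.09375, adjusted over 2 ratios 0.1875) and -0.65 for Cnot6 to Cnot6l (exact permutation p = 0.453, adjusted 0.453). Neither passed, in a design whose smallest possible p was 0.0156. The test pools the 3 RIPs and so asks about a shift that they share. The differences from Input with YTHDF1, YTHDF2 and YTHDF3 were -1.44, -0.45 and -0.25 for Cnot7 to Cnot8. For Cnot6 to Cnot6l they were -2.09, 0.35 and -0.20. A shift in a single RIP is not what this test can decide. The YTHDF1 RIP alone was not tested against Input by permutation, since 3 libraries against 3 cannot go below 0.1.

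**Figure D3:**
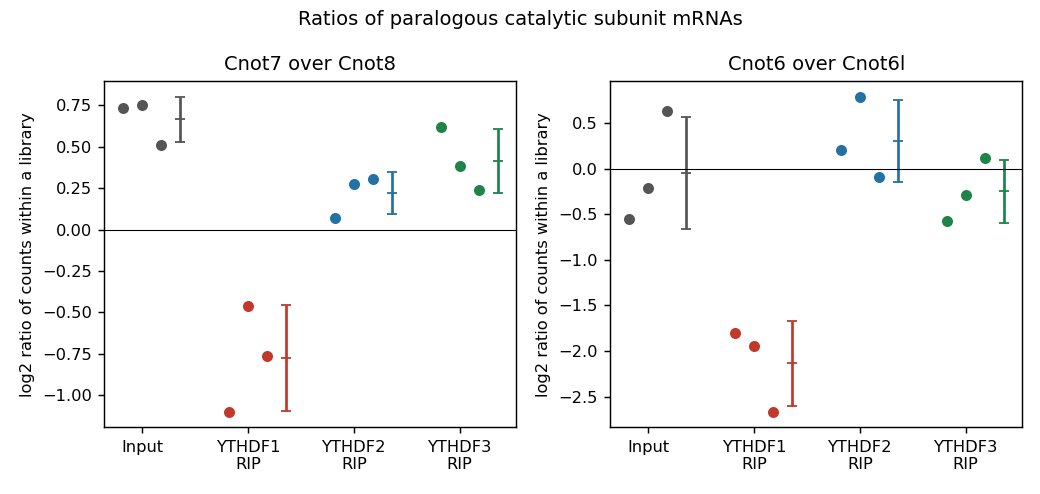
Log2 ratio of counts of the catalytic paralogs within each library, with points for the replicates and the mean ± SD beside them. The YTHDF1 libraries lie lowest in both panels, between -1.10 and -0.46 for Cnot7 over Cnot8 and between -2.67 and -1.80 for Cnot6 over Cnot6l.

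CNOT2 and CNOT3 form the NOT module that binds the end of the scaffold. Cnot2 (ENSMUSG00000020166, chr10:116485161-116581511, minus strand) was at 33.9, 34.9 and 27.4 CPM in Input and at 18.8, 21.1 and 16.5 CPM in the YTHDF1 RIP, a log2 fold change of -0.77 ± 0.18 (1.71-fold lower, edgeR adjusted p = 0.00338). The YTHDF1 libraries were below every Input library. The values for YTHDF2 (22.6, 27.8 and 20.8 CPM) gave -0.44 ± 0.18 and did not pass (adjusted p = 0.0747), and those for YTHDF3 (32.8, 28.6 and 29.2 CPM) gave -0.09 ± 0.17. The YTHDF1 call held in all 12 alternatives and all 6 fits without a library. The YTHDF2 value was called in 3 of 12, which were DESeq2 (-0.45, adjusted p = 0.0420), TMM before the filter (-0.54, 0.0395) and TMM over protein-coding genes (-0.55, 0.0348). Between the YTHDF1 and YTHDF3 RIPs the log2 difference of Cnot2 was -0.68 ± 0.18 (edgeR adjusted p = 0.0170), which was under 2-fold. With library size alone it passed 2-fold and was called lower, at -1.41 (adjusted p = 0.000365).

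Cnot3 (ENSMUSG00000035632, chr7:3645268-3661109, plus strand) was at 31.5, 33.7 and 33.1 CPM in Input and at 50.7, 54.2 and 42.1 CPM in the YTHDF2 RIP. All YTHDF2 libraries were above Input, with a log2 fold change of 0.58 ± 0.16 (1.49-fold, edgeR adjusted p = 0.0180). The call was lost without Input replicate 1 or 3 or without YTHDF2 replicate 1 or 2, with an adjusted p of up to 0.0639. It held in 7 of 12 alternatives and was lost with the length trend removed (0.29, adjusted p = 0.225, and 0.255 with the replicate block), with TMM before the filter (0.48, 0.0572), without a filter (0.48, 0.367) and in a fit of YTHDF2 and Input alone with the replicate number as a block (0.59, 0.0593). The YTHDF1 and YTHDF3 values, 0.31 ± 0.16 and -0.02 ± 0.16, did not pass. The microRNA gene Mir3572 shares exonic bases with Cnot3 on the same strand, with between 1 and 22 counts.

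CNOT10 and CNOT11 bind the other end of the scaffold. Cnot10 (ENSMUSG00000056167, chr9:114585878-114640184, minus strand) was at 25.3, 24.01 and 23.2 CPM in Input. It was at 41.2, 46.6 and 39.0 CPM with YTHDF2 and at 41.4, 40.2 and 46.4 CPM with YTHDF3, all above Input. The YTHDF1 libraries were at 22.4, 22.05 and 19.5 CPM, all below Input. The log2 fold change was 0.80 ± 0.15 for YTHDF2 (1.75-fold, edgeR adjusted p = 0.00181), 0.82 ± 0.15 for YTHDF3 (1.76-fold, adjusted p = 0.00105) and -0.18 ± 0.15 for YTHDF1 (adjusted p = 0.309). The YTHDF3 call held in all 12 alternatives, and the YTHDF2 call was lost without a filter (0.70, adjusted p = 0.0918). The YTHDF1 value was called depleted in 4 of 12, with library size alone (-0.58, adjusted p = 0.0214), TMM over protein-coding genes (-0.43, 0.0371) and the length trend removed (-0.65, 0.00674, and 0.0115 with the replicate block). Cnot10 was 2.003-fold lower in the YTHDF1 than in the YTHDF3 RIP (adjusted p = 0.00079), just past the 2-fold threshold, and without YTHDF3 replicate 3 the log2 difference was -0.94, under it. With library size alone it was 3.32-fold, and in the 2 groups alone with the block the call was lost (adjusted p = 0.0728). Against the YTHDF2 RIP the log2 difference of -0.99 ± 0.15 had an adjusted p of 0.000547 and was just under 2-fold. It passed 2-fold and was called in 9 of 12 alternatives and in 5 of 6 fits without a library. The values called in these alternatives lay between -1.02 with DESeq2 size factors and -1.46 with library size alone.

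Cnot11 (ENSMUSG00000003135, chr1:39534992-39546889, plus strand) passed in none of the comparisons as fitted here. Its Input libraries were at 23.4, 21.4 and 18.7 CPM, and the RIP libraries ranged from 13.2 to 21.2 CPM. The log2 fold changes were -0.42 ± 0.20, -0.45 ± 0.20 and -0.14 ± 0.20 for YTHDF1, YTHDF2 and YTHDF3, with edgeR adjusted p of 0.1003, 0.108 and 0.605. The YTHDF1 value was called depleted in 3 of 12 alternatives, which were library size alone (-0.82, adjusted p = 0.00234), TMM over protein-coding genes (-0.67, 0.0128) and a minimum mean of 50 (-0.53, 0.0305), and also without YTHDF1 replicate 3 (-0.65). The YTHDF2 value was called with TMM over protein-coding genes (-0.56, adjusted p = 0.0459) and without YTHDF2 replicate 3 (-0.65). Cnot11 was lower in the YTHDF1 than in the YTHDF3 RIP with library size alone, at -1.005 (adjusted p = 0.00138).

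Cnot4 (ENSMUSG00000038784, chr6:35022065-35133724, minus strand) encodes an E3 ubiquitin ligase that associates with the complex. It was at 40.3, 34.2 and 32.7 CPM in Input, at 19.7, 23.7 and 24.6 CPM with YTHDF2 and at 23.4, 18.9 and 16.2 CPM with YTHDF3. Both sets were below Input. The YTHDF3 log2 fold change of -0.87 ± 0.27 passed (1.83-fold lower, edgeR adjusted p = 0.0219), while the YTHDF2 value of -0.66 ± 0.27 did not (adjusted p = 0.0781). The YTHDF2 value was called in 5 of 12 alternatives, with DESeq2 (-0.67, adjusted p = 0.0447), TMM over protein-coding genes (-0.77, 0.0361), the length trend removed (-1.03, 0.0106, and 0.0192 with the replicate block) and the 2 groups alone (-0.64, 0.0170). The YTHDF3 call was lost without Input replicate 1 or without YTHDF3 replicate 2 or 3, with an adjusted p of up to 0.0782, and it held in 9 of 12 alternatives, being lost with library size alone (-0.56, 0.0513), TMM before the filter (-0.75, 0.0607) and no filter (-0.75, 0.0512). The YTHDF1 libraries spread from 26.05 to 57.4 CPM, with a log2 fold change over Input of 0.33 ± 0.26 that did not pass (adjusted p = 0.319) and that was called at 0.61 without YTHDF1 replicate 1. Cnot4 was 2.30-fold higher there than in the YTHDF3 RIP (adjusted p = 0.00834), a call that was lost without YTHDF1 replicate 2 or 3 and held in 6 of 12 alternatives. In those that lost it, the log2 difference lay between 0.44 with library size alone (1.36-fold, adjusted p = 0.121) and 0.99 with TMM over protein-coding genes (adjusted p = 0.0165, under 2-fold), and in the 2 groups alone with the block the adjusted p was 0.229. Against the YTHDF2 RIP the log2 difference of Cnot4 was 0.98 ± 0.27 (edgeR adjusted p = 0.0183), which was just under 2-fold. Cnot4 was called higher there in 2 of 12 alternatives, at 1.06 with TMM before the filter and without a filter.

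The 3 RIPs were also compared directly, with a gene called at an adjusted p of at most 0.05 and a fold change of at least 2. Between the YTHDF1 and YTHDF2 RIPs 1 member was higher (Cnot6l) and 1 lower (Cnot7), where 11.4% of all genes were higher and 6.10% lower. Cnot1 (0.83 ± 0.17, edgeR adjusted p = 0.00393), Cnot4 (0.98 ± 0.27, 0.0183) and Cnot10 (-0.99 ± 0.15, 0.000547) passed the adjusted p there but were under 2-fold. Between the YTHDF1 and YTHDF3 RIPs 2 were higher (Cnot6l and Cnot4) and 2 lower (Cnot7 and Cnot10), against 10.8% and 3.63%. Cnot2 (-0.68 ± 0.18, edgeR adjusted p = 0.0170) passed the adjusted p there but was under 2-fold. Between the YTHDF2 and YTHDF3 RIPs 0 members were called by edgeR and 0 by DESeq2, where edgeR called 3.95% of all genes higher and 1.16% lower. At an unadjusted edgeR p under 0.05 and without a fold threshold, 1 member was higher (Cnot3) and 1 lower (Cnot1). There Cnot3 alone had an edgeR adjusted p below the threshold, 0.0467, at a log2 difference of 0.60 ± 0.16. In the test of any difference among the RIPs 7 of 10 members passed, against 32.3% of all genes, and those that did not were Cnot6 (adjusted p = 0.0897), Cnot8 (adjusted p = 0.0821) and Cnot11 (adjusted p = 0.394).

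**Figure D4:**
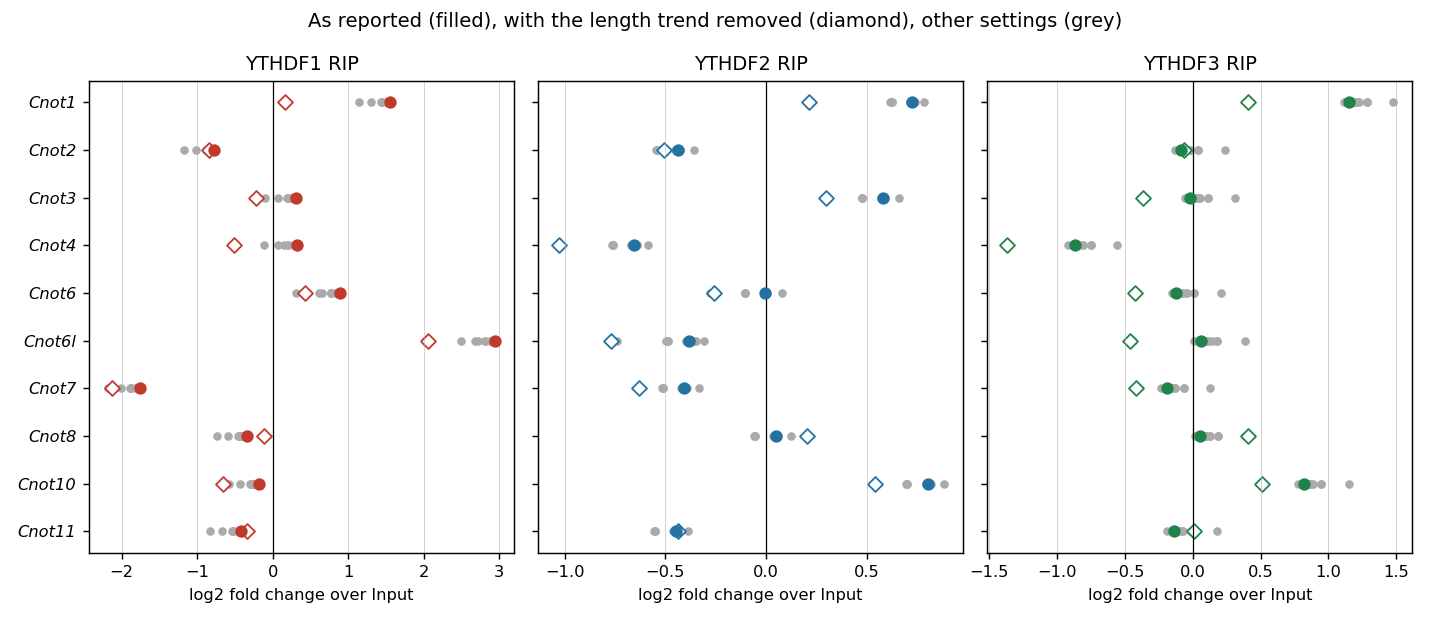
Log2 fold change over Input of each member as reported (filled), with the length trend removed (diamond) and under the other settings (grey), with a panel per RIP. Cnot1 moves from 1.55 to 0.16 in the YTHDF1 RIP when the length trend is removed, whereas Cnot6l is at 2.02 or above and Cnot7 at -1.75 or below in every setting shown.

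Other genes of mRNA deadenylation and decay were taken from 5 lists of 57 genes, of which 53 were tested. With YTHDF1 23 were enriched and 13 depleted, with YTHDF2 14 and 9, and with YTHDF3 14 and 12. Over all genes 27.2% were enriched and 25.8% depleted with YTHDF1, 15.7% and 19.0% with YTHDF2, and 16.4% and 23.0% with YTHDF3. These shares are the background for every count by list below. Of the 30 counts by list, RIP and direction, 21 moved by over 1.5 times in at least 1 of 12 alternatives, so the ranges over these are given below where they are wide.

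Among 8 tested partners of CCR4-NOT, 5 were enriched and 1 was depleted in the YTHDF1 RIP, and 2 were enriched and 1 depleted in each of the YTHDF2 and YTHDF3 RIPs. Over the alternatives the enriched partners numbered from 2 to 5 for YTHDF1, from 1 to 2 for YTHDF2 and from 2 to 6 for YTHDF3. Ddx6, a helicase that links the complex to translational repression, had a log2 fold change of 2.36 ± 0.17 with YTHDF1, 0.48 ± 0.17 with YTHDF2 and 1.003 ± 0.17 with YTHDF3. Those of Tnks1bp1, a scaffold-bound partner, were 2.23 ± 0.25, 1.69 ± 0.24 and 1.18 ± 0.24. Both genes were enriched in each RIP as fitted, with edgeR adjusted p for YTHDF2 of 0.0409 for Ddx6 and 0.0006 for Tnks1bp1. In 7 of 12 alternatives 1 partner alone was enriched with YTHDF2. Cnot9, a core subunit that the selection of members did not include, was the single depleted partner in each RIP, at -0.88 ± 0.16, -0.77 ± 0.16 and -0.70 ± 0.16. With library size alone and without a filter, 0 partners were depleted with YTHDF3, so that its call was lost there.

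Of 8 genes listed as other deadenylases, 4 were enriched and 2 depleted with YTHDF1, 3 and 1 with YTHDF2, and 2 and 1 with YTHDF3. Whether each of these genes encodes an active deadenylase was not tested. Pan3, a subunit of the PAN2-PAN3 deadenylase, had log2 fold changes of 2.96 ± 0.18 for YTHDF1, 1.05 ± 0.17 for YTHDF2 and 0.89 ± 0.17 for YTHDF3. Noct was enriched with YTHDF1 at 1.50 ± 0.22 and with YTHDF3 at 0.91 ± 0.22, where it did not differ from Pan3 beyond its error. Angel2 was depleted with YTHDF1 at -0.91 ± 0.17, and the poly(A)-specific ribonuclease Parn in each RIP, at -0.41 ± 0.14, -0.41 ± 0.14 and -0.64 ± 0.14. Over the alternatives the enriched genes of this list numbered from 2 to 4 with YTHDF1, from 1 to 3 with YTHDF2 and from 0 to 5 with YTHDF3, and the depleted ones from 1 to 2, 0 to 1 and 0 to 1.

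Of 14 tested adaptors that bring the complex to mRNAs, 8 were enriched and 0 depleted with YTHDF1, 4 and 1 with YTHDF2, and 5 and 0 with YTHDF3. The shares of all genes enriched were 27.2%, 15.7% and 16.4%, and of those depleted 25.8%, 19.0% and 23.0%. Beside both counts of 0 by edgeR, 0 were lower at an unadjusted p under 0.05 and 0 were depleted by DESeq2. However, 2 adaptors were depleted with YTHDF1 with library size alone and with TMM over protein-coding genes, and 1 with the length trend removed, while 1 was depleted with YTHDF3 in the 2 groups alone with the block. Over the alternatives the enriched adaptors numbered from 6 to 9 with YTHDF1, from 1 to 4 with YTHDF2 and from 4 to 11 with YTHDF3. Rc3h2, a stem-loop binding protein of the roquin family, was enriched in the YTHDF1 RIP at a log2 fold change of 4.27 ± 0.51. Tnrc6c, which joins Argonaute to CCR4-NOT, was enriched in each RIP, at 3.44 ± 0.21 for YTHDF1, 1.94 ± 0.20 for YTHDF2 and 1.60 ± 0.20 for YTHDF3. Nanos1 was depleted in the YTHDF2 RIP at -0.78 ± 0.20.

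Of 17 genes of decapping and decay, 5 were enriched and 8 depleted with YTHDF1, 4 and 2 with YTHDF2, and 5 and 7 with YTHDF3. Over the alternatives the enriched genes numbered from 3 to 5, 1 to 4 and 2 to 7, and the depleted ones from 6 to 10, 2 to 4 and 5 to 7. Within this list the highest called log2 fold change was that of the decapping gene Dcp1a for YTHDF1 (1.77 ± 0.15, with Dcp2 within its error at 1.75 ± 0.23), of Dcp2 for YTHDF2 (1.02 ± 0.23) and of the decapping regulator Eif4enif1 for YTHDF3 (0.88 ± 0.13, with Dcp1a within its error at 0.78 ± 0.15). The lowest were genes of the LSM ring, Lsm5 for YTHDF1 at -1.90 ± 0.60, Lsm1 for YTHDF2 at -1.82 ± 0.33 and Lsm4 for YTHDF3 at -2.13 ± 0.41, each within the error of the next lowest. Of 6 tested genes of poly(A) binding, Pabpn1 was enriched with YTHDF1 and YTHDF2 at 2.14 ± 0.30 and 1.27 ± 0.29. Paip2b was depleted in each RIP, at -1.94 ± 0.29, -0.85 ± 0.28 and -1.33 ± 0.28, and Pabpc1, the main cytoplasmic poly(A) binding protein, with YTHDF2 and YTHDF3 at -1.82 ± 0.19 and -1.50 ± 0.19. In this list 1 gene was enriched and 2 depleted with YTHDF1, 1 and 4 with YTHDF2, and 0 and 3 with YTHDF3. For the latter 0, 1 gene was higher at an unadjusted p under 0.05, and DESeq2 called 1 enriched. Over the alternatives the depleted genes of this list numbered from 2 to 5 with YTHDF1, 4 in each with YTHDF2, and from 2 to 3 with YTHDF3.

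**Figure D5:**
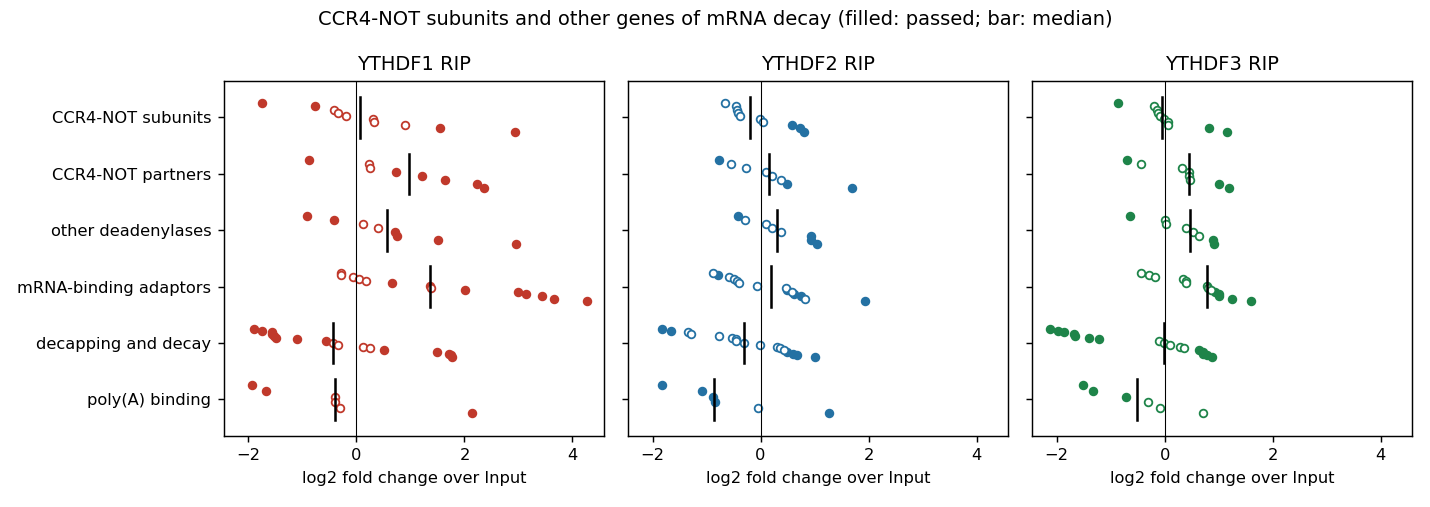
Log2 fold change over Input of the CCR4-NOT subunits and of the genes of the 5 lists, with a panel per RIP, filled points for genes that passed and a bar at each median. The subunits have a median near 0 in each panel, from -0.20 to 0.06, with called genes on both sides in the YTHDF1 and YTHDF3 RIPs.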

How the data were processed

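RIP-seq was performed on 12 libraries. Per the labels and the methods, the authors extracted unique molecular identifiers and removed duplicates with UMI-tools 1.1.1, trimmed with cutadapt 3.4, aligned to mm10 (GRCm38) with STAR 2.7.7a, and counted fragments over exons with featureCounts 2.0.1 (Ensembl release 97, strand setting 2). The deposited values used here are these raw counts. Reads over several genes, and all alignments of a read, were counted. The authors' other tables hold their own log2 fold changes and p-values, and only gene names were read from them.

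The test covered genes whose normalized count averaged 10 or more. A quasi-likelihood model of 4 groups was fitted with edgeR 4.0.16 (R 4.3.3) after TMM scaling, and the SE is the log2 fold change divided by the square root of F. Normalized CPM are counts over the TMM-scaled library size. Paralog ratios used a pseudocount of 1. The fit was also run on counts simulated with the same spread per gene in every group. Unequal spread between groups was not covered. Alternatives included DESeq2 1.42.0, other scalings and filters, removal of a loess length trend (span 0.3), the replicate number as a block, and leaving out each library. Intervals at 95% are the log2 fold change ± 1.96 SE, with a quantile of the normal distribution. They are narrower than the F test implies. For Cnot11 with YTHDF1 the interval of -0.81 to -0.02 left out 0 at an unadjusted F test p of 0.0604.

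Members and lists were chosen with earlier results of these data known. All 10 members were named, and from each list the called genes with the highest and lowest log2 fold change over Input. Btg4, Nanos2, Nanos3 and Pabpc1l were too low to test.

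Per the methods, the lysate of each replicate was split among the 3 RIPs, which shared 1 Input. Correlations of same-numbered deviations from the group means were 0.528 to 0.829 for Input and YTHDF3, -0.322 to 0.0907 for Input and YTHDF1, and -0.323 to 0.178 for Input and YTHDF2. For YTHDF1 and YTHDF2 they were 0.059 to 0.544. Input replicate 3 went with YTHDF1 replicate 2 (0.467, against -0.322 with replicate 3) and YTHDF2 replicate 2 (0.560, against -0.313 with replicate 3). The replicate block and the permutation within replicate numbers rest on this numbering. Whether the numbers mark the shared lysates was not settled here. No pair of libraries held identical counts.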

Additional observations from a re-analysis of the deposited data

Results flagged for a closer look

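Results were listed here where a direct test between 2 RIPs passed, which means that the fold changes over Input differed between these RIPs. In the YTHDF1 against the YTHDF2 RIP the log2 difference was 3.32 for Cnot6l and -1.35 for Cnot7. In the YTHDF1 against the YTHDF3 RIP it was 2.88 for Cnot6l, -1.56 for Cnot7, 1.20 for Cnot4 and -1.002 for Cnot10. Cnot6l and Cnot7 kept their calls in all 12 alternatives and all 6 fits that left out a library of the groups compared, in both comparisons.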

How the results depend on the processing

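Of 16 member calls, 8 held in all 12 alternatives and in every fit without a library of the groups compared, and none of the 16 changed sign. Adding the replicate number as a block to the fit of all libraries changed no member's call. In that fit YTHDF1 had 2 enriched and 2 depleted members. The cause of the changes listed here was not tested.

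Members depleted in the YTHDF1 RIP numbered 5 with library size alone, 5 with TMM over protein-coding genes and 4 at a minimum mean of 50. Over all genes the depleted numbered 4414 as fitted, 6219 with library size alone and 5515 with TMM over protein-coding genes. At a minimum mean of 50, which tests fewer genes, they numbered 3951. Members depleted in the YTHDF2 RIP numbered 2 with DESeq2, 1 with TMM before the filter, 3 with TMM over protein-coding genes, 2 with the length trend removed (2 with the replicate block added) and 1 with 2 groups alone. Over all genes the depleted numbered 3247 as fitted, and 3643, 3534 and 3764 with DESeq2 and these TMM settings. They numbered 2811 with the length trend removed (2714 with the block) and 3695 with 2 groups alone. With the length trend removed, with or without the replicate block, 1 member was enriched in each of the YTHDF1, YTHDF2 and YTHDF3 RIPs, and without a filter 0 were enriched in the YTHDF2 RIP. Over all genes the enriched numbered 3799, 2220 and 2609 with the length trend removed, against 4662, 2693 and 2817 as fitted. Without a filter they numbered 2037 with YTHDF2. For YTHDF3 0 were depleted with library size alone, TMM before the filter or no filter. In these settings 3031, 3448 and 3793 of all genes were depleted, against 3940 as fitted. In the YTHDF1 against the YTHDF2 RIP, 2 were lower with DESeq2, DESeq2 size factors, library size alone, TMM over protein-coding genes, a minimum mean of 50, the length trend removed (also with the replicate block) and 2 groups alone (also with the replicate block), and 2 were higher with TMM before the filter or no filter. Over all genes the lower numbered 1045 as fitted and, in these settings, from 887 (2 groups alone) to 2796 (library size alone). The higher numbered 1949 as fitted, 2082 with TMM before the filter and 2402 without a filter. In the YTHDF1 against the YTHDF3 RIP, 1 was higher with library size alone, TMM over protein-coding genes, the length trend removed (also with the replicate block) and 2 groups alone (also with the replicate block). There 5 were lower with library size alone and 1 with 2 groups alone and the replicate block. Over all genes the lower numbered 621 as fitted, 3440 with library size alone and 110 with 2 groups alone and the block. The higher numbered 1858 as fitted. In the settings named they ranged from 326 (2 groups alone with the block) to 1367 (TMM over protein-coding genes).

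Without 1 library, the count ranged from 2 to 4 for enriched members in the YTHDF1 RIP, from 0 to 1 for depleted members in the YTHDF2 RIP and from 0 to 1 for depleted members in the YTHDF3 RIP. It ranged from 1 to 3 higher and 1 to 2 lower members for YTHDF1 against YTHDF2, and from 1 to 3 higher and 1 to 2 lower for YTHDF1 against YTHDF3.

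Log2 values that changed sign belonged to members that were not called. Against Input with library size alone, they were -0.10 (Cnot3) and -0.11 (Cnot4) for YTHDF1, 0.078 (Cnot6) for YTHDF2, and 0.24 (Cnot2), 0.31 (Cnot3), 0.21 (Cnot6), 0.13 (Cnot7) and 0.18 (Cnot11) for YTHDF3. Between RIPs with that scaling they were -0.44 (Cnot11, YTHDF1 against YTHDF2), -0.33 (Cnot1) and -0.41 (Cnot3) for YTHDF1 against YTHDF3, and -0.031 (Cnot4) and -0.13 (Cnot6) for YTHDF2 against YTHDF3. With TMM before the filter and with no filter alike, they were -0.055 (Cnot8, YTHDF2), 0.037 (Cnot2), 0.11 (Cnot3) and 0.0090 (Cnot6) for YTHDF3, and -0.013 (Cnot4) and -0.11 (Cnot6) for YTHDF2 against YTHDF3. With the length trend removed they were -0.22 (Cnot3) and -0.52 (Cnot4) for YTHDF1, -0.46 (Cnot6l) and 0.0078 (Cnot11) for YTHDF3, -0.049 (Cnot1, YTHDF1 against YTHDF2), -0.24 (Cnot1, YTHDF1 against YTHDF3) and 0.032 (Cnot10, YTHDF2 against YTHDF3). With the replicate block added to this they were -0.23, -0.53, -0.44, 0.0087, -0.046, -0.24 and 0.027 in the same order. Cnot3 in the YTHDF3 RIP was 0.025 with DESeq2 and with its size factors, 0.053 with 2 groups alone and 0.048 with the replicate block in these. Cnot11 for YTHDF1 against YTHDF2 was -0.11 with TMM over protein-coding genes, -0.081 at a minimum mean of 50, -0.033 with 2 groups alone and -0.023 with the replicate block in these. Cnot8 in the YTHDF2 RIP was -0.062 with TMM over protein-coding genes. Cnot6 was 0.0063 in the YTHDF2 RIP with 2 groups alone, and for YTHDF2 against YTHDF3 it was -0.0022 there and -0.011 with the replicate block.

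Without 1 library, values spanned 0 for Cnot6 (-0.17 to 0.19) and Cnot8 (-0.020 to 0.14) in the YTHDF2 RIP, for Cnot3 (-0.061 to 0.074), Cnot6 (-0.29 to 0.022) and Cnot6l (-0.11 to 0.18) in the YTHDF3 RIP, for Cnot11 (-0.18 to 0.24) for YTHDF1 against YTHDF2, and for Cnot6 (-0.025 to 0.31), Cnot8 (-0.078 to 0.080) and Cnot10 (-0.088 to 0.056) for YTHDF2 against YTHDF3.

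The paralog ratios kept their sign under every pseudocount and without the replicate block, where the exact permutation p was 0.0636 for Cnot7 to Cnot8 and 0.391 for Cnot6 to Cnot6l. The YTHDF2 libraries were the shallowest, with as few as 92 counts for Cnot11. The SE of the log2 fold change of Cnot11 over Input was 0.20 in each RIP, and that of Cnot1 0.17 in each. The fit gives each gene a single estimate of spread over all groups, so similar SE do not show that depth had no effect. For Cnot6l the SE was 0.37, 0.35 and 0.35 with YTHDF1, YTHDF2 and YTHDF3, while the SD over replicates was 160, 4.61 and 3.32 CPM.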
